A study of Mus musculus with 21 samples.

Results

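The cytosolic ribosomal protein genes were described in RNA sequencing libraries of mouse dorsal root ganglia, which hold the cell bodies of the sensory neurons of the trunk and limbs. A gene was taken as a member when its symbol was Rpl or Rps followed by a number, with any later letter and number, or was Rplp0, Rplp1, Rplp2 or Rpsa, and when both deposited count tables listed it. Symbols of pseudogenes ending in ps and a number were left out. The rule gave 89 members, 53 of the large subunit (Rpl) and 36 of the small subunit (Rps), among the 24381 genes that both tables list. It does not take in some genes, such as Rack1, Fau and Rpl36al, which also encode ribosomal proteins, and it does take in 5 genes that RefSeq annotates as pseudogenes (Rps3a2, Rps3a3, Rpl6l, Rps12l1 and Rps4l).

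The mice carried a floxed Tmem45b gene and a Cre recombinase expressed under Mrgprd, whose receptor is found in nonpeptidergic nociceptors (cKO), or the floxed gene alone (flox), so that all animals carried the floxed allele and deletion was limited to cells that have used the Mrgprd promoter. There were 21 libraries in 6 groups. The CFA model, in which complete Freund's adjuvant is the usual meaning of the abbreviation, had 4 cKO and 4 flox libraries. Untreated mice were in 2 sets told apart by their library names: con/ko (4 cKO and 3 flox libraries) and LDRG (3 cKO and 3 flox libraries). The LDRG and CFA libraries share 1 count table and the con/ko libraries have another, so the con/ko set and its table cannot be told apart. Age and strain are not given in the labels used here, nor is it said that replicates were separate animals, so the p-values rest on a spread between libraries that may be technical.

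Total counts were 53364389 to 72502294 per library. Tmem45b, which checks the genotype labels, was at 68.6 to 89.1 CPM (counts-per-million with TMM-scaled library sizes, the unit used unless said otherwise) in con/ko cKO libraries, against 148 to 179 CPM in con/ko flox libraries, and at 59.9 to 72.2 CPM in LDRG cKO libraries, against 124 to 145 CPM in LDRG flox libraries. In CFA it did not separate the labels, with 61.8 to 108 CPM in the libraries labelled cKO and 65.9 to 136 CPM in those labelled flox. Summed CPM of 12 sensory neuron markers was 20455 to 24609 in CFA, 17029 to 21231 in con/ko and 25978 to 28400 in LDRG libraries, and no marker was at 0 in any set.

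A ribosome is built from a small subunit, which reads the messenger RNA, and a large subunit, which joins amino acids. Nearly all of their proteins are needed in equal numbers, and their messages are among the most abundant of a cell. Many of these messages begin with a cytosine followed by a run of pyrimidines, the 5′ terminal oligopyrimidine tract through which mTORC1 and the RNA-binding protein Larp1 control their translation. Mammalian genomes also hold many processed copies of ribosomal protein genes, made by reverse transcription of the spliced message, and reads from a gene and a near-identical copy are hard to assign. In sensory neurons, ribosomal protein messages are known to be carried into axons as well as kept in the cell body.

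The copies are shown first because a member and an identical copy have the same letters and separate rows in the tables. The first 90 coding bases of Rpl15, a large-subunit protein, and of its copy Rpl15-ps3 (chr9:22185607-22186221, minus strand, build mm10, GENCODE vM21) were the same letter for letter, as were all 612 coding bases, which leaves nothing to put in capitals.

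Rpl15: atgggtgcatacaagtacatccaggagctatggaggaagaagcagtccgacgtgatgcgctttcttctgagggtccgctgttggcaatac

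Rpl15-ps3: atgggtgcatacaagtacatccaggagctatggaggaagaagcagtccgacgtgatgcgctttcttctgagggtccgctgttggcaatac

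Rpl3, a large-subunit protein beside the centre that forms peptide bonds, differed from its copy Rpl3-ps1 (chrX:13202571-13203780, plus strand) in 2 of 1209 coding bases, of which 1 lies in the 90 shown here (capital letter).

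Rpl3: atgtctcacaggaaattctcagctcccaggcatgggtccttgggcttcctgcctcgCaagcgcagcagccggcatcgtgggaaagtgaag

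Rpl3-ps1: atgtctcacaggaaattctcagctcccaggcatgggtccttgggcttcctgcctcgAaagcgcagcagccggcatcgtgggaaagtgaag

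Of the 83 members with an annotated coding sequence, 54 had at least 1 such copy among the genes of the tables, a copy being a gene outside the rule whose transcript matches at least 80% of the coding sequence at 95% identity or more. There were 182 copies in all, 102 of them with a mean of 1 CPM or more. The counts sat mostly on the copies. The 89 members together held 0.14% to 0.172% of all counts in CFA, 0.205% to 0.273% in con/ko and 0.153% to 0.169% in LDRG libraries, and of the counts of members and copies together they held 27.0% to 28.9%, 26.1% to 26.9% and 27.9% to 29.8% in those sets. In 46 of the 54 members with copies the member held less than 50% of the counts of itself and its copies, and in 36 less than 10%.

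Rps6, the small-subunit protein that S6 kinase phosphorylates, had 5.58, 6.94 and 8.30 CPM as lowest, median and highest CFA library, 11.5, 15.3 and 19.5 CPM in con/ko and 5.88, 7.08 and 8.14 CPM in LDRG. Its copy Rps6-ps4, the same in all 747 coding bases, had 212, 231 and 250 CPM in CFA, 266, 299 and 347 CPM in con/ko and 220, 236 and 240 CPM in LDRG. The copy was thus counted many times more often than the gene in every library. Rpl3 had medians of 17.6 CPM in CFA, 29.0 CPM in con/ko and 17.5 CPM in LDRG, against medians of 358, 443 and 349 CPM for Rpl3-ps1 in the same sets. Rps27, a zinc-finger protein of the small subunit, had 0.259 to 1.34 CPM in CFA, 0.173 to 0.548 CPM in con/ko and 0.327 to 1.46 CPM in LDRG, while its copy Rps27rt, the same over the coding sequence, had 38.1 to 47.2, 54.8 to 76.2 and 32.5 to 42.9 CPM. A level given for a member is that of its own row only.

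**Figure D1:**
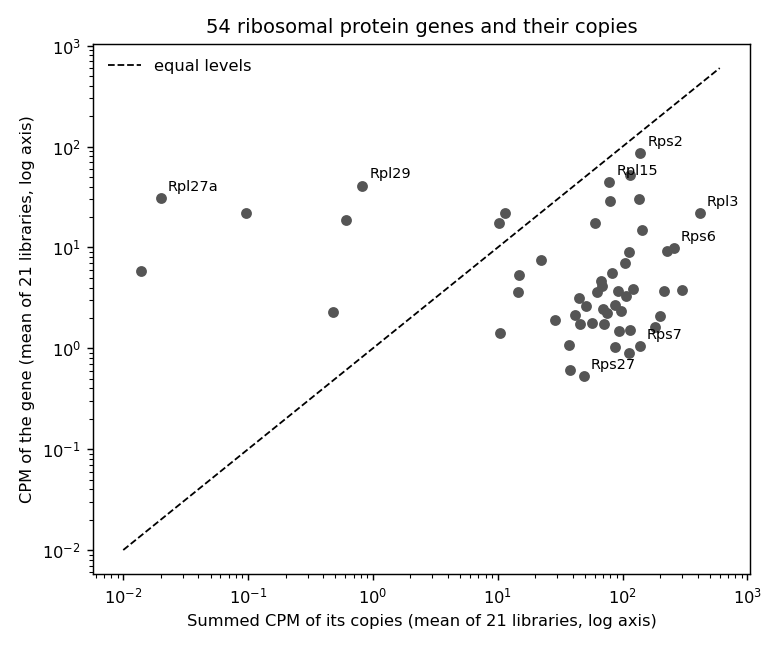
Mean CPM over 21 libraries of each of the 54 ribosomal protein genes with copies (vertical, log axis) against the summed mean CPM of its copies (horizontal, log axis), both before TMM scaling; the broken line marks equal levels. Most points lie below the line: in 46 of 54 the gene holds less than 50% of the counts.

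Levels varied widely among the members. As means over the 21 libraries, 4 had 100 CPM or more (before TMM scaling), 32 had 10 CPM or more, 46 lay from 1 to 10 CPM and 11 were under 1 CPM. Among the highest means were 218 CPM for Rps3a2, 155 CPM for Rpl8, 147 CPM for Rps3 and 88.3 CPM for Rpl4. Rpl8, Rps3 and Rpl4 have no copy by the criterion used. Rps3a2 is a pseudogene in RefSeq and matches the coding sequence of Rps3a1, a protein at the mRNA exit of the small subunit, at 99.5% identity; Rps3a1 itself averaged 3.25 CPM.

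The lowest were Rpl10l and Rps12l1, with no count in any of the 21 libraries, where 3 counts would give 0.00211 CPM (counting error only), then Rpl39l at 0.032 CPM, Rps29 at 0.376 CPM and Rpl3l at 0.439 CPM. Rpl10l and Rpl39l are paralogues known mainly from testis, and Rpl3l is a paralogue of striated muscle. Per kilobase of exon, the median was 1.80 CPM in the 54 members with copies and 8.24 CPM in the 35 without. The 5 pseudogenes and Rpl32l, for which no coding sequence was annotated, are among the 35 and were not searched for copies. Rps3a2 (275 CPM per kilobase), Rpl32l (91.1), Rpl6l (42.9), Rps3a3 (32.7) and Rps4l (20.6) raise that median, while Rps12l1 had no count. The 35 also hold Rps3a1 and Rpl6, whose near-identical rows are themselves members. The 2 medians thus do not compare genes with and without near-identical rows.

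Among the paralogue pairs with both members detected, Rpl7l1, a relative of Rpl7 linked to subunit assembly, had the higher level per kilobase of exon at 8.24 CPM, against 6.48 CPM for Rpl7. Rps27l, a close relative of Rps27 and a p53 target, was at 9.35 CPM per kilobase, against 0.509 CPM per kilobase for Rps27. Rpl22, an RNA-binding protein that mouse T cells need for their development, was at 13.2 CPM per kilobase, against 2.49 CPM for Rpl22l1. These are levels of the members' own rows, without copies, and Rpl7 and Rps27 have copies.

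Start sites were read for the 64 members with a promoter entry in RefSeq (build GRCm38.p6), with 25 having none there. A run of at least 8 C or T bases on the gene's strand, within 20 bases on either side of the annotated start, was found in 31 of these 64 members (48.4%) and in 18.4% of 27025 genes of all kinds. Such a run is a match of letters and does not show that a message starts in it. Shown are 30 bases, from 10 before the start, with the longest run in capitals, for some members that have such a run. They are Rpl15 because of its separate levels among libraries, Rpl35 because of its large difference between untreated sets, and Rpl13a as a member of known role. Other members on which results turn had no run of 8, among them Rplp0 (longest run 7 bases), Rpl22 (5), Rpsa (5) and Rps3 (3).

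Rpl15 (chr14:18270967-18270996, minus strand): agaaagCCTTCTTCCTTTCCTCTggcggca

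Rpl35 (chr2:39005112-39005141, minus strand): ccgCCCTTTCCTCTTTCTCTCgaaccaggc

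Rpl13a (chr7:45128726-45128755, minus strand): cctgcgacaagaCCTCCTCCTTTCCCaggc

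The first comparison asked whether deletion of Tmem45b in Mrgprd-lineage neurons goes with a change of ribosomal protein genes in untreated ganglia. No member was called in the 13 untreated libraries with the name set as a term (edgeR quasi-likelihood test, Benjamini-Hochberg adjusted p under 0.05), of 85 tested. Over all 16311 genes tested 0.00613% were called. At an unadjusted p under 0.05 there were 4 members in edgeR, beside 1113 of 16311 genes, and 4 in DESeq2, beside 1254 genes; DESeq2 called no member. The median log2 difference of the members, cKO over flox, was 0.03, beside a value near 0 for all genes, and 50 of 85 were above 0. The smallest p-values were those of Rplp0 (0.63, SE 0.23), Rpl26 (0.35, SE 0.14), Rpl27 (0.87, SE 0.38) and Rps25 (0.28, SE 0.13), with adjusted p of 0.685 to 0.727 in edgeR.

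The summed CPM of the 89 members was 2246, 2585, 2081 and 2157 in con/ko cKO libraries 4 to 7, against 2222, 1961 and 2187 in con/ko flox libraries 4 to 6. In the LDRG set it was 1662, 1562 and 1595 in cKO libraries 1 to 3, against 1742, 1696 and 1572 in flox libraries 1 to 3. The ranges of the genotypes overlapped in both sets.

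Within the LDRG set no member of 85 was called, beside 0.0188% of 15998 genes (0.0125% higher and 0.00625% lower), with 4 members at an unadjusted p under 0.05 in edgeR (732 of all genes), 3 in DESeq2 (749 of all genes) and none called by DESeq2. The smallest unadjusted p belonged to Rpl36a, a large-subunit protein of the exit site for transfer RNA, with 3.38, 3.15 and 0.908 CPM in cKO and 0.910, 0.932 and 0.997 CPM in flox libraries. The third cKO library thus lay with the flox libraries, and the log2 difference was 1.39 (SE 0.46, adjusted p = 0.99). In Rps28, a small-subunit protein near the mRNA exit, the LDRG cKO libraries had 1.29, 0.951 and 1.06 CPM, against 0.469, 0.860 and 0.698 CPM in flox libraries, without overlap (0.70, SE 0.29, adjusted p = 0.99). In all, 5 members had all cKO libraries above all flox libraries, and 2 had them below, of 85, beside 5.3% and 5.13% of 15998 genes. Those above were Rplp2, Rps15a, Rps25, Rps27a and Rps28, and those below Rpl15 and Rpl7l1.

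In the con/ko set 1 of 86 members was called, beside 0.243% of 16440 genes (0.00608% higher and 0.237% lower), with 3 members at an unadjusted p under 0.05 (1088 of all genes). The called member was Rpl3l, the muscle paralogue of Rpl3, which had no count in the 4 cKO libraries, against 142, 100 and 256 counts (2.11, 1.48 and 3.69 CPM) in the 3 flox libraries. That is at least 212-fold lower in cKO, taking 3 counts over the cKO group as the floor (adjusted p = 0.0386, edgeR). The call was lost without any 1 of con/ko cKO libraries 4, 5 and 6 or flox libraries 4, 5 and 6 (adjusted p 0.0785 to 0.153).

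Skeletal muscle markers moved with it: the summed CPM of 12 markers was 73.7 to 123 in con/ko cKO and 555 to 937 in con/ko flox libraries, with 1 marker at 0 in all cKO libraries. Acta1, the muscle actin gene among them, was at 1.19 to 2.05 CPM in con/ko cKO and 114 to 206 CPM in con/ko flox libraries. The sum does not fall to 0 where Acta1 is low. In CFA cKO libraries it was 66.8 to 110 CPM, with Acta1 at 0.217 to 3.18 CPM. The 12 include Pvalb, and sums of this size need not be muscle RNA. LDRG cKO library 1 had 107 CPM of Acta1 and no Rpl3l count. The part of muscle RNA in the difference was not tested.

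Rplp0, which forms the base of the stalk that recruits elongation factors, had 28.5, 31.9, 26.3 and 28.7 CPM in con/ko cKO libraries and 9.26, 8.68 and 19.9 CPM in con/ko flox libraries. The groups did not overlap, and the flox libraries lay below all 18 other libraries, which had 25.4 CPM or more. The log2 difference was 1.19 (SE 0.29), with an adjusted p of 0.342 in edgeR and 0.00284 in DESeq2; without flox library 6 it was 1.68 and was called by edgeR (adjusted p = 0.00509). Rpl26, a large-subunit protein, had 5.72, 4.75, 3.63 and 4.09 CPM in cKO and 3.08, 3.38 and 2.81 CPM in flox libraries (0.55, SE 0.20, adjusted p = 0.68). In all, 4 members lay above without overlap (Rpl26, Rpl4, Rplp0 and Rps3a1) and 1 below (Rpl3l), beside 3.94% and 3.85% of 16440 genes.

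Under CFA, no member of 85 was called by edgeR between the libraries labelled cKO and flox, nor any of 16116 genes (0.0%), with 4 members at an unadjusted p under 0.05, beside 799 of all genes. DESeq2 called 2 members, both higher, beside 12 of 16116 genes higher and 6 lower. Rps4l, a transcribed pseudogene in RefSeq on chromosome 6, had 25.7, 20.3, 22.0 and 22.7 CPM in libraries labelled cKO, against 14.9, 15.6, 15.8 and 17.1 CPM in those labelled flox. The groups did not overlap (log2 difference 0.52, SE 0.09, adjusted p = 0.938 in edgeR and 0.000284 in DESeq2). Rpl37a, a zinc-finger protein of the large subunit, had 4.82, 5.0, 5.33 and 4.17 CPM in libraries labelled cKO and 2.75, 2.95, 3.10 and 3.8 CPM in those labelled flox (0.62, SE 0.13, adjusted p = 0.938 in edgeR and 0.0482 in DESeq2). These 2 members lay above without overlap, and 3 lay below (Rpl12, Rpl6 and Rpl7), beside 1.56% and 1.95% of 16063 genes.

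In the LDRG set Rps4l had 25.2, 20.9 and 28.4 CPM in cKO and 22.7, 25.7 and 22.1 CPM in flox libraries, which overlapped, and Rpl37a had 3.32, 3.96 and 4.49 CPM in cKO and 4.56, 3.89 and 5.28 CPM in flox libraries, which overlapped too. The test of the genotype difference in CFA minus that in LDRG called no member of 86 and no gene of 16928 (0.0%), with 4 members at an unadjusted p under 0.05 in edgeR (635 of all genes), 6 in DESeq2 (710 of all genes), and none called by DESeq2. CFA and LDRG libraries also differ in sex, as the Xist values given below show. Sex and treatment thus cannot be told apart in this test of the interaction. For Rpl37a this interaction was 0.84 (SE 0.25, adjusted p = 1.0, edgeR) and for Rps4l 0.44 (SE 0.16, adjusted p = 1.0, edgeR).

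**Figure D2:**
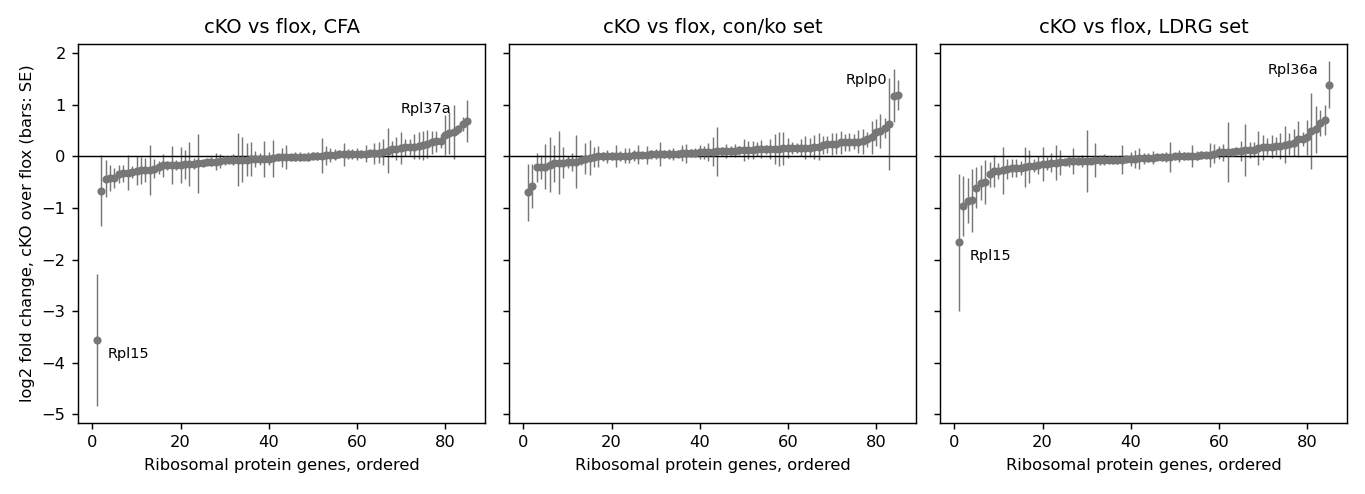
Log2 fold change, cKO over flox, of each tested ribosomal protein gene (points, ordered within each panel; bars are SE) in CFA, con/ko and LDRG libraries; Rpl3l is not drawn. Most genes lie near 0 in each panel, and Rpl15 stands apart in CFA at -3.56 with an SE of 1.27.

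Between CFA and LDRG ganglia, which share a table, 1 of 86 members was higher and 2 were lower, beside 6.70% and 5.23% of 16928 genes (edgeR, 1 fit of the 6 groups, averaged over genotypes). The median log2 difference of the members was -0.07, beside a value near 0 for all genes. Rps15, a protein of the small-subunit head, had 42.9, 48.6 and 55.3 CPM as lowest, median and highest CFA library, against 37.6, 40.2 and 42.3 CPM in LDRG, and rose by 0.29 (SE 0.08, adjusted p = 0.0254). Every CFA library lay above every LDRG library, the 1 of 86 members for which this held, beside 3.53% of genes, and 0 lay below without overlap, beside 2.74%. The Rps15 call was lost without LDRG cKO library 3, flox library 1 or flox library 3 (adjusted p 0.0524 to 0.0663), and with the counts of its copy added (0.13, adjusted p = 0.159).

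Rps4l had 14.9, 18.7 and 25.7 CPM in CFA and 20.9, 23.9 and 28.4 CPM in LDRG libraries and was lower by a log2 difference of -0.35 (SE 0.08, adjusted p = 0.00964). In cKO libraries alone it was -0.13 (adjusted p = 0.639). Rpl7l1 had 23.9, 27.5 and 29.5 CPM in CFA and 28.2, 29.8 and 30.9 CPM in LDRG libraries (-0.15, SE 0.05, adjusted p = 0.0496). Its call was lost without any 1 of 10 libraries: CFA cKO 2 and 4, CFA flox 1 and 4, LDRG cKO 1, 2 and 3 and LDRG flox 1, 2 and 3 (adjusted p 0.0726 to 0.106). Rps2, at the mRNA entry, and Rpl6, which did not pass the test, had differences of -0.15 (SE 0.06, adjusted p = 0.0904) and -0.23 (SE 0.09, adjusted p = 0.111), and Rpl32l one of 0.13 (SE 0.06, adjusted p = 0.153). Rpl6 was called without CFA flox library 2 (adjusted p = 0.047) or LDRG flox library 2 (adjusted p = 0.0314), and Rps2 without CFA flox library 3 (adjusted p = 0.0277).

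The summed level of the members was 1483, 1568 and 1740 CPM as lowest, median and highest of the 8 CFA libraries and 1562, 1629 and 1742 CPM in the 6 LDRG libraries, with overlapping ranges. The copies summed to 3775 to 4424 CPM in CFA and to 3771 to 4226 CPM in LDRG. Xist, which marks libraries from female mice, was at 283 to 459 CPM in CFA and at 0.33 CPM or less in LDRG libraries, so sex and treatment cannot be told apart in this comparison.

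**Figure D3:**
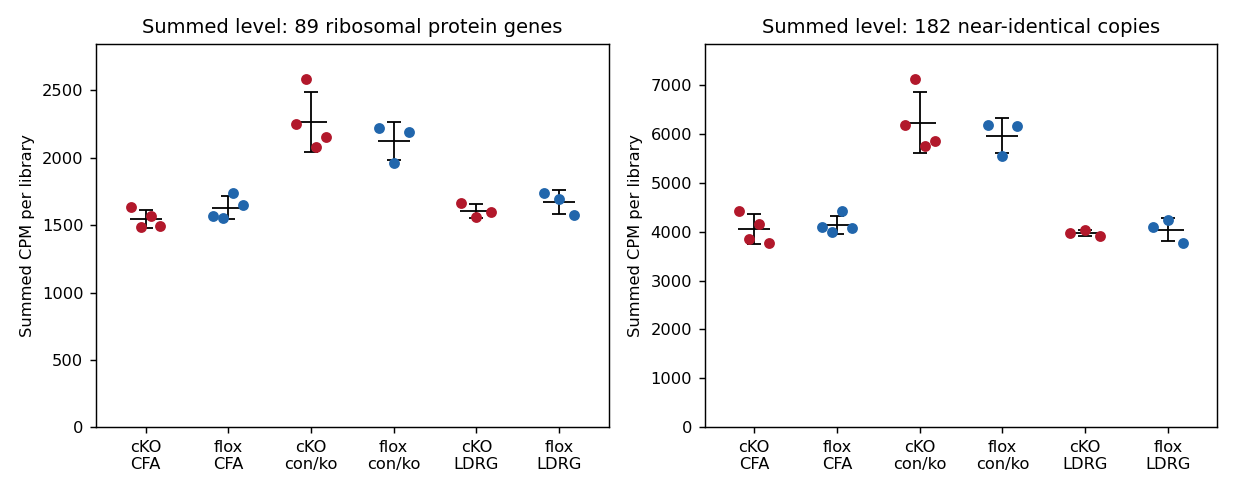
Summed CPM per library of the 89 ribosomal protein genes (left) and of their near-identical copies (right) in the 6 groups; points are libraries (red cKO, blue flox), and bars are mean and SD. In both panels every con/ko library lies above every CFA and LDRG library.

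The untreated sets were then compared with each other. In con/ko over LDRG, 53 of 86 members were higher and 4 lower, beside 25.7% and 23.0% of 16928 genes (48.7% in either direction). The median log2 difference was 0.55 for the members and 0.02 for all genes, and 73 of 86 members were above 0. The small-subunit genes had a median of 0.76, with 26 of 35 higher and 2 lower, and the large-subunit genes a median of 0.41, with 27 of 51 higher and 2 lower. In 41 members every con/ko library was above every LDRG library, beside 12.8% of genes, and in 1 member every con/ko library was below (Rps4l), beside 12.3%.

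The abundant Rps3, which lines the mRNA entry and also has a role in DNA repair, shows the size of this difference at low counting error. It had 234, 241, 199.6 and 212 CPM in con/ko cKO and 208, 201 and 233 CPM in con/ko flox libraries, against 104, 112 and 108 CPM in LDRG cKO and 121, 118 and 110 CPM in LDRG flox libraries. No con/ko library came near an LDRG library, and the log2 difference was 0.96 (SE 0.05, adjusted p = 3.88e-10). Rpsa, a small-subunit protein also known as the laminin receptor, had 17.5, 19.0, 14.01 and 13.6 CPM in con/ko cKO and 14.4, 11.5 and 12.2 CPM in con/ko flox libraries. In LDRG it had 5.59, 5.54 and 6.70 CPM in cKO and 6.18, 6.38 and 7.62 CPM in flox libraries, all below the con/ko values (1.17, SE 0.12, adjusted p = 5.74e-07).

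Among the largest rises were those of Rpl35, Rps26, Rps16, Rpl39, Rps3a1, Rps27l, Rps27a, Rps25, Rpl41, Rpl36 and Rpsa, from 1.87 (Rpl35) to 1.17 (Rpsa) on the log2 scale. Rps3a1 has near-identical rows in Rps3a2 and Rps3a3, which are members and so are not added when copies are summed. Its own row had 4.76 to 7.28 CPM in con/ko and 1.72 to 2.22 CPM in LDRG. The far larger Rps3a2 row had 216 to 282 CPM against 183 to 214 CPM, and Rps3a3 had 35.5 to 47.3 CPM against 16.1 to 19.9 CPM. Rpl35, at the mouth of the tunnel through which the new protein leaves, had 0.735, 1.60 and 1.67 CPM as lowest, median and highest con/ko library and 0.328, 0.387 and 0.454 CPM in LDRG (1.87, SE 0.25, adjusted p = 8.33e-06). Rps26, at the mRNA exit, had 5.08, 6.70 and 8.16 CPM in con/ko, against 1.53, 2.06 and 2.51 CPM in LDRG (1.68, SE 0.14, adjusted p = 4.62e-08). Rpl41, the shortest ribosomal protein, had 66.5, 77.3 and 99.2 CPM in con/ko and 30.3, 33.2 and 39.5 CPM in LDRG (1.20, SE 0.09, adjusted p = 3.72e-08). These 3 genes, like Rps3 and Rpsa, had no overlap between the sets. With copies summed, Rps26 was at 0.47, Rpsa at 0.45, Rps25 at 0.35 and Rps27a at 0.74, all still called. Rpl35 and Rpl41 have no copy by the criterion, so this setting adds no counts to their rows and does not test them.

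Among the other members of known role, Rps6 rose by 1.09 (SE 0.13), Rpl3 by 0.76 (SE 0.07), Rpl13a, known also for silencing inflammatory messages in human cells, by 0.63 (SE 0.20) and Rplp1, a stalk protein, by 0.31 (SE 0.10), each with an adjusted p under the threshold. Rpl10, which joins the large subunit last, rose by 1.02 (SE 0.33). Rplp2, the other stalk protein, stood at 0.17 (SE 0.12, adjusted p = 0.235). Rpl5 and Rpl11, which with 5S ribosomal RNA can bind Mdm2, stood at 0.49 (SE 0.32) and -0.25 (SE 0.27), and Rps19, mutated in human Diamond-Blackfan anaemia, at 0.69 (SE 0.33), not called by edgeR with all libraries. Rpl5 was called without LDRG flox library 1 (0.80, adjusted p = 0.044), and Rps19 without LDRG cKO library 3 (0.88, adjusted p = 0.0478) or in cKO libraries alone (1.23, adjusted p = 0.0448). With copies summed, Rplp2 was at 1.07 (adjusted p = 9.5e-08), Rpl5 at 0.71 (adjusted p = 2.33e-05) and Rps19 at 1.35 (adjusted p = 1.16e-10). The only copy of Rplp2 by the criterion is Wdr89, annotated as a protein-coding gene on chromosome 12. Means over the 21 libraries, before TMM scaling, were 45.8 CPM for Wdr89 and 1.73 CPM for Rplp2. The summed value of Rplp2 is thus mostly that of the Wdr89 row and does not show a rise of Rplp2.

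Rpl4 stood at 0.15 (SE 0.06, adjusted p = 0.0634) in edgeR and was called by DESeq2 (0.14, adjusted p = 0.0474). In edgeR it was called without con/ko cKO library 6 or LDRG flox library 2 and with 3 other settings (adjusted p 0.0164 to 0.0497). Rps2, Rps4x and Rpl7 were at -0.03, 0.00 and -0.09 and were not called by edgeR with their own rows. With copies summed, Rps2 was at 0.30 (adjusted p = 0.000184) and Rpl7 at 0.20 (adjusted p = 0.0223).

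The 4 that were lower in con/ko were Rpl22 (-1.42), Rps4l (-0.61), Rplp0 (-0.60) and Rps15a (-0.17). Rps4l had 13.1, 15.6 and 18.4 CPM in con/ko, against 20.9, 23.9 and 28.4 CPM in LDRG (adjusted p = 1.41e-05). In cKO libraries alone the Rplp0 difference was -0.01 (adjusted p = 0.965). Rps15a, a small-subunit protein, was higher in con/ko once its copies were added (0.37, adjusted p = 6.34e-06). The Rpl22 call was lost without LDRG cKO library 1 or 3, LDRG flox library 1, or con/ko flox library 4 or 5 (adjusted p 0.0516 to 0.163).

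Adding the counts of copies to each member, an alternative chosen after the data were seen, gave 71 of 86 higher and 3 lower in con/ko over LDRG, with a median of 0.57. Over all 16799 genes tested in this setting, 4295 were higher and 3846 lower. The copies counted alone had 105 of 129 higher and 2 lower, with a median of 0.74, beside 25.7% and 23.0% of 16928 genes. Rps27 is an example: the gene was at -0.68 (SE 0.43, adjusted p = 0.202), while the gene and Rps27rt together had 55.1 to 76.6 CPM in con/ko and 32.8 to 44.3 CPM in LDRG libraries, without overlap. Of the ribosomal protein genes outside the rule, Rack1 and Fau also rose, by 0.49 and 1.22, and Rpl36al stood at 0.30 (adjusted p = 0.282).

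CFA against con/ko, which uses the same con/ko libraries and is not independent of the comparison above, had 4 of 86 members higher and 60 lower, beside 24.1% and 28.0% of 16928 genes (52.1% in either direction). The median was -0.60, beside -0.04 for all genes. In 41 members every CFA library was below every con/ko library, beside 9.47% of genes, and in 0 members above, beside 10.1%. Among the largest falls were Rpl35 at -1.86 (SE 0.22), Rps26 at -1.69 (SE 0.12), Rps3a1 at -1.62 (SE 0.13), Rps16 at -1.62 (SE 0.21) and Rps25 at -1.48 (SE 0.11), followed by Rpl39, Rps27l, Rpl34, Rpl36, Rpl19 and Rpsa. With copies summed, these falls were smaller in Rps26 (-0.45), Rps25 (-0.39), Rpsa (-0.46), Rpl19 (-0.63), Rpl34 (-0.79) and Rpl36 (-0.76), each still called, and Rps16 was at -1.27. The near-identical rows of Rps3a1 are members and are not added by this. Of these, Rps3a2 had 180 to 235 CPM in CFA and 216 to 282 CPM in con/ko, and Rps3a3 had 16.2 to 24.3 CPM and 35.5 to 47.3 CPM. The 4 that were higher were Rps27 (0.99), Rplp0 (0.56), Rps4l (0.26) and Rps15a (0.17). None of these 4 held in all settings. With copies added, Rps27 was at -0.47 (adjusted p = 6.42e-05) and Rps15a at -0.29 (adjusted p = 2.6e-05). In cKO libraries alone Rplp0 was at -0.02 (adjusted p = 0.954), and in flox libraries alone Rps4l was at 0.01 (adjusted p = 0.981). The Rps27 call was lost without any 1 of 10 libraries (adjusted p 0.0518 to 0.119): CFA cKO 3 and 4, CFA flox 1 and 3, con/ko cKO 4 to 7 and con/ko flox 4 and 6. Side by side, the members' median was -0.60 for CFA over con/ko and -0.07 for CFA over LDRG, both within the same 6-group fit.

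**Figure D4:**
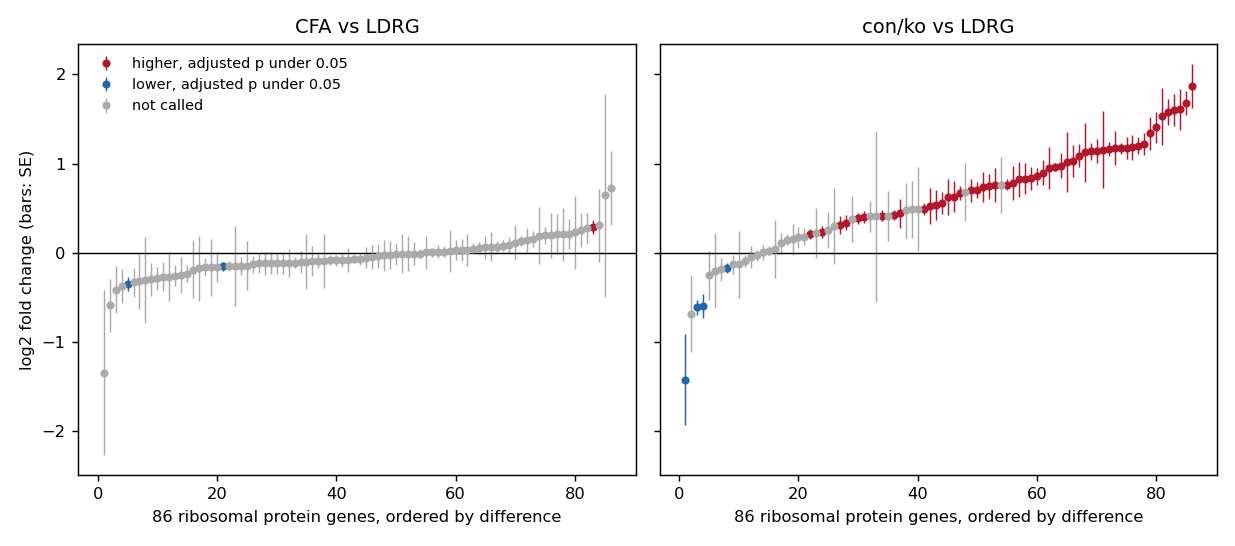
Log2 fold change of the 86 tested ribosomal protein genes (points, ordered within each panel; bars are SE) for CFA over LDRG (left) and con/ko over LDRG (right); red is higher and blue lower at an adjusted p under 0.05. In the left panel 3 genes are coloured, and in the right panel 57.

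Several other measures moved with the con/ko set. Genes of the respiratory chain, which also have short messages, had 53 of 71 higher and 4 lower (median 0.45), with Ndufb1 at 1.64 (SE 0.09) and Atp5e at 1.66 (SE 0.12). Mitochondrial ribosomal protein genes had 29 of 77 higher and 8 lower (median 0.11), led by Mrpl54 at 1.17 (SE 0.09). Small nucleolar RNA host genes had 11 of 17 higher and 1 lower (median 0.38), with Zfas1 at 0.98 (SE 0.07). Initiation factors (8 of 40 higher, 12 lower, median -0.03), ribosome biogenesis factors (9 of 51 higher, 15 lower, median -0.03) and genes of mTORC1 and its message control (4 of 20 higher, 7 lower, median -0.06) did not share the members' median. Elongation and termination factors had 6 of 15 higher and 5 lower (median 0.05), and ribosome quality control genes 4 of 16 higher and 8 lower (median -0.13).

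Message length moved with it too. Among other genes, the median log2 difference of con/ko over LDRG was 0.38 for 798 genes with under 1000 exonic bases, 0.22 for 1983 genes from 1000 to 2000, 0.07 for 5120 genes from 2000 to 4000 and -0.06 for 8685 genes from 4000 on. The median of the members with copies was 0.65 and of those without, which include members not searched for copies, 0.41.

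Markers of blood and other cells also differed. The summed CPM of 7 red blood cell genes was 1658 to 4518 in con/ko and 49.6 to 69.1 in LDRG libraries, that of 9 neutrophil genes 144 to 2686 against 1.70 to 5.68, and that of 6 fibroblast genes 1430 to 2429 against 588 to 821. None of these markers was at 0 in all libraries of either set. In the CFA libraries the sums were 222 to 640 for red blood cells, 40.7 to 133 for neutrophils and 1029 to 1478 for fibroblasts, all above LDRG. For red blood cells and neutrophils every CFA library also lay below every con/ko library. In ganglion tissue, a change in the cells present and a change of RNA per cell cannot be told apart. The part of cell makeup and of message length in the members' difference was not tested.

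The con/ko names carry letters whose meaning the labels do not give (F or M, then C or L). The members' sums in the 3 libraries with L (con/ko cKO 7 and flox 5 and 6) were 2157, 1961 and 2187 CPM, and in the 4 with C 2246, 2585, 2081 and 2222 CPM. In the 3 con/ko libraries with Xist at 0.206 CPM or less (cKO 6 and 7, flox 6), which are those with M, they were 2081, 2157 and 2187 CPM. All of these sums lie above the highest LDRG library, at 1742 CPM. The 4 con/ko libraries with F had Xist at 284 to 320 CPM, while every LDRG library was at 0.33 CPM or less. Sex thus differs in part between the untreated sets.

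Some members had separate levels among libraries of 1 group. Ordered over the 21 libraries, 11 of 78 members with a mean of 1 CPM or more (14.1%) had a step of at least 2-fold between neighbours, beside 3.86% of 14233 genes. Among them were Rpl15, Rpl22, Rpl9, Rpl13a, Rpl36a, Rpl7a, Rplp0, Rpl27, Rps27l and Rpl35a. In Rpl9, Rpl13a, Rpl7a, Rps27l and Rpl35a a single library lay below the others.

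Rpl15 (chromosome 14, 18267823 to 18271391, minus strand, build mm10) had the largest step, 9.42-fold. In CFA it had 15.4, 1.09, 1.04 and 1.01 CPM in libraries labelled cKO and 77.8, 0.993, 71.3 and 69.2 CPM in those labelled flox. In con/ko it had 65.7, 76.7, 62.6 and 62.8 CPM in cKO and 65.2, 1.63 and 62.6 CPM in flox libraries. In LDRG it had 65.7, 1.32 and 1.24 CPM in cKO and 73.8, 72.5 and 70.3 CPM in flox libraries. So 7 libraries lay at 1.63 CPM or less, 5 of them cKO and 2 flox, 1 stood between, and 13 were at 62.6 CPM or more. Its copy Rpl15-ps3 stayed at 54.2 to 61.9 CPM in CFA, 63.7 to 78.5 CPM in con/ko and 54.9 to 60.2 CPM in LDRG, with no such step. The sum of Rpl15 and its copies was 69.7 to 83.0 CPM in the 7 low libraries, 90.03 CPM in the one between and 136 CPM or more in the others. With all libraries, edgeR called Rpl15 in no genotype or set comparison. Without LDRG cKO library 1 it was called lower in LDRG cKO than in LDRG flox libraries (-5.82, adjusted p = 5.16e-06) and higher in con/ko than in LDRG (2.48, adjusted p = 0.0463). In CFA over con/ko it was called lower without CFA cKO library 1 (-2.83, adjusted p = 0.0181), in cKO libraries alone (-3.85, adjusted p = 0.032) and with copies summed (-0.54, adjusted p = 0.0113).

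Rpl22 (chromosome 4, 152325742 to 152334071, plus strand) had a step of 3.59-fold at other libraries. It was at 79.7 to 94.4 CPM in CFA cKO 4, CFA flox 2 and 4, LDRG cKO 1 and 3 and LDRG flox 1, and at 17.9 to 22.2 CPM in the other 15, all con/ko libraries among them. Both levels thus occurred in both genotypes and in CFA and LDRG. Low Rpl15 and high Rpl22 met in 3 libraries, CFA cKO 4, CFA flox 2 and LDRG cKO 3. The closest row, Rpl22-ps1 with 93.9% identity, was at 13.9 to 16.4 CPM in CFA, 22.1 to 26.3 CPM in con/ko and 13.7 to 16.0 CPM in LDRG.

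Rps24, a small-subunit protein, had 6.26, 16.7, 6.95 and 15.9 CPM in CFA libraries labelled cKO and 5.64, 14.9, 6.45 and 6.64 CPM in those labelled flox, and 16.5, 14.99 and 18.3 CPM in LDRG cKO, against 6.11, 16.1 and 17.3 CPM in LDRG flox libraries. In con/ko the cKO libraries had 23.9, 26.8, 13.4 and 12.4 CPM and the flox libraries 24.5, 19.6 and 22.1 CPM. Within each set there were thus a high and a low level, but over all 21 libraries no step reached 2-fold. The origin of these levels was not tested.

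**Figure D5:**
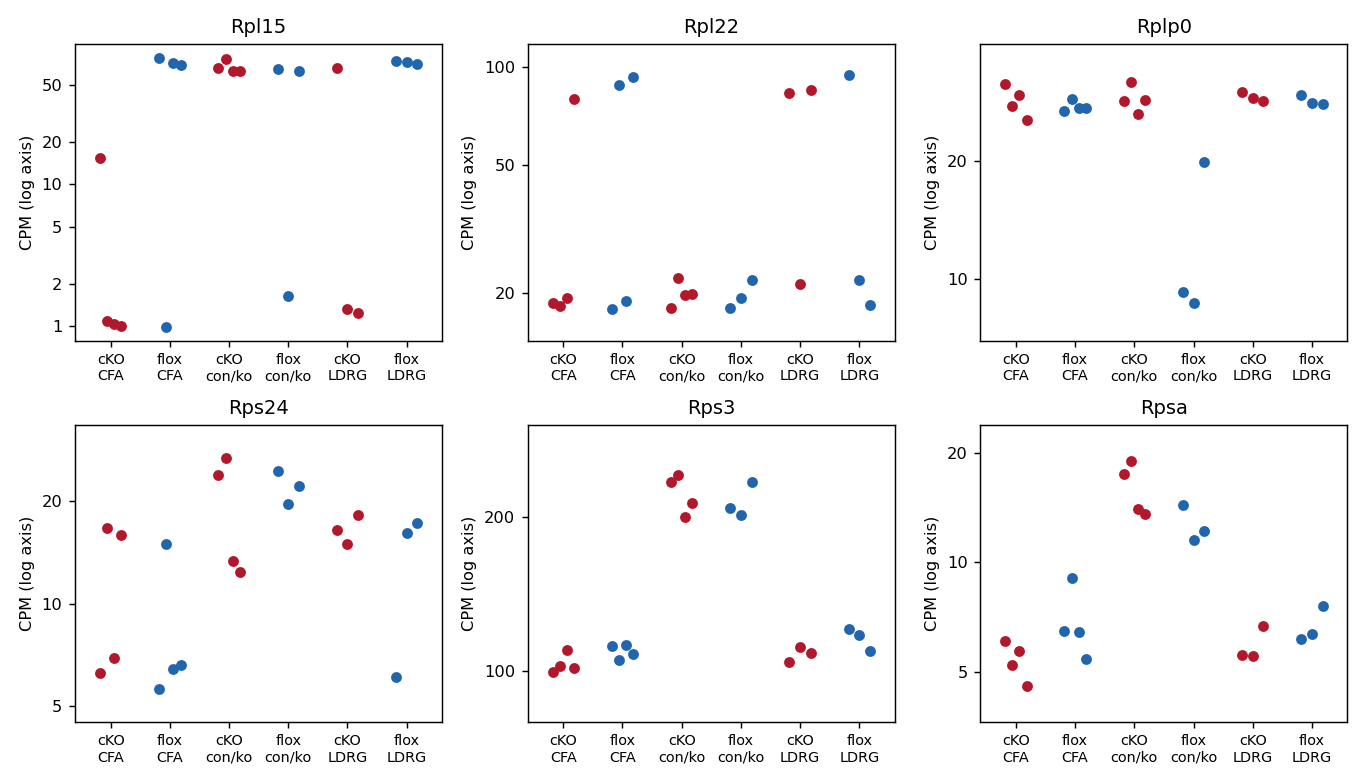
CPM (log axes) of 6 ribosomal protein genes in each library of the 6 groups (red cKO, blue flox). Rpl15 and Rpl22 take separate levels within groups, Rplp0 is low in the 3 con/ko flox libraries, and Rps3 and Rpsa are higher in all 7 con/ko libraries.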

How the data were processed

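The authors deposited unnormalized counts of reads for each gene, from poly-A selected RNA read in pairs of 150 bases, per the labels: 1 table of 14 libraries and 24524 genes (CFA and LDRG) and 1 of 7 libraries and 24512 genes (con/ko). The submitters' processing notes name fastp 0.23.2, BWA 2.2.1, SAMtools 1.14, DESeq2 1.40.2 and mm10; the counting tool and its treatment of reads with several matches are not given in the sources used here. Genotype was taken from titles, since the genotype characteristic gives Cre for all samples. The members and gene lists were chosen with earlier results of these data known.

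Counts were analysed with edgeR 4.0.16 in R 4.3.3: filterByExpr (minimum count 10, total 15), TMM factors, quasi-likelihood F tests, Benjamini-Hochberg adjustment over all genes tested and a threshold of 0.05. The SE was derived from the log2 fold change and F. Genotypes were compared within the libraries concerned, and sets in 1 fit of the 6 groups. CPM values use TMM-scaled library sizes unless said otherwise. The code was tested on simulated counts with known changes. Copies were found with BLAST 2.17.0 from coding sequences against GENCODE vM21 transcripts, whose coordinates are on mm10; other members were not counted as copies. Promoter sequences are from RefSeq (GRCm38.p6). Named in each comparison were up to 12 called rises and 12 called falls, or the 6 smallest p where fewer than 4 were called, with fixed members of known role, paralogue pairs and the 5 highest and 5 lowest means; others were chosen after their values were seen. Some genes that the rule names are not reported here. Alternatives were other size factors, DESeq2 1.42.0, other filters, a replicate block, other terms and sample sets, leaving out each library, and summed copies. No replicate pair agreed within sampling noise (chi-square per degree of freedom 26.1 to 145 over 27 pairs). Floors of 3 counts cover counting error only.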

Additional observations from a re-analysis of the deposited data

Results flagged for a closer look

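In groups of 4 libraries, 14 of 152 tests of the highest or lowest library (9.21%) found it far from the other 3 by Dixon's criterion. For normally distributed values the criterion gives about 1 in 20. The share over all genes is not given here, so the count does not set the members apart from other genes. Beside each value stands the range of the other 3 libraries of its group, in CPM.

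Among the libraries labelled cKO in CFA, Rpl15 was high in library 1 at 15.4 (1.01 to 1.09), and Rpl22 was high in library 4 at 79.7 (18.3 to 19.3). Rpl27, a large-subunit protein, was high in library 2 at 5.10 (1.42 to 1.57). Rpl36a was low in library 1 at 0.938 (2.69 to 2.81), and in library 4 Rpl7a was low at 1.75 (4.37 to 4.72) and Rps25 at 2.19 (2.75 to 2.85).

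Among those labelled flox in CFA, library 2 was low in Rpl15 at 0.993 (69.2 to 77.8) and high in Rpl10 at 4.82 (1.65 to 2.02) and Rpl6 at 12.9 (9.71 to 10.04). Rpl18 was high in library 3 at 3.22 (2.58 to 2.66), and Rplp2 was low in library 1 at 1.06 (1.68 to 1.77).

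In con/ko cKO, library 5, which also had the highest summed level of the members, was high in Rpl4 at 118 (93.5 to 96.1) and Rpl8 at 218 (173 to 179). Rpl35 was low in library 6 at 0.735 (1.60 to 1.67).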

How the results depend on the processing

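The genes followed here had the largest called changes or the smallest p in each comparison. Under all alternatives, 1347 of their values kept the call or the lack of one, 62 lost the call, 7 gained one and 4 reversed. Direction was compared only for genes called in the main edgeR fits, so a change of sign in an uncalled gene is not among the 4. Reversed were Rplp0 in CFA over con/ko (-0.016, cKO libraries only) and, with copies summed, Rps27 (-0.47) and Rps15a (-0.29) in CFA over con/ko and Rps15a (0.37) in con/ko over LDRG. The cause was not tested. In con/ko over LDRG the count of higher members was 27 among members with a mean of at least 5 CPM, where fewer genes were tested, and the count of lower ones 2 in cKO or flox libraries alone. In CFA over con/ko it was 31 lower at 5 CPM, and higher 1 in cKO or flox libraries alone and 2 with copies summed. In CFA over LDRG, higher was 0 in cKO or flox libraries alone; lower was 0 in cKO libraries and 1 in flox libraries, with RLE or upper quartile factors, with no filter, with only the compared libraries or with a replicate block. Between genotypes, DESeq2 gave 1 higher in con/ko and 2 in CFA, and the 1 lower member in con/ko became 0 at 5 CPM, with no filter or with the replicate block. Same-numbered libraries did not deviate together (correlations -0.15 to 0.24), so the numbers were not taken as pairs. Leaving out each library gave 49 to 54 higher and 3 to 4 lower (con/ko over LDRG), 3 to 5 and 57 to 61 (CFA over con/ko), 0 to 1 and 1 to 3 (CFA over LDRG), 0 to 1 and 0 to 1 (genotype, con/ko) and 0 and 0 to 1 (genotype, LDRG). Members under 1 CPM rest on fewer reads than the others.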
